A study of Mus musculus with 10 samples.

Results

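The nuclear genes for proteins of the mitochondrial ribosome were taken from the authors' deposited table by symbol, MRPL or MRPS followed by a number and at most 1 letter. The rule found 78 genes among 35395 identifiers, 49 with an MRPL (large subunit) symbol and 29 with an MRPS (small subunit) symbol. Each of the 78 had a fold change and an adjusted p in all 4 comparisons of the table, so none was lost to a filter on low values.

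Mitochondria carry their own ribosome, which translates the few membrane proteins encoded in mitochondrial DNA, all of them subunits of the respiratory chain and ATP synthase. Its ribosomal RNAs and a structural valine tRNA come from mitochondrial DNA, while every protein is encoded in the nucleus, made in the cytosol and imported. The small subunit binds the mRNA and decodes it, and the large subunit forms the peptide bond and holds the exit tunnel. Some of the proteins have a counterpart in bacterial ribosomes and others are found in mitochondria alone. In fat cells the respiratory chain built from these products burns fatty acids and supplies ATP for lipid synthesis.

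The labels describe epididymal fat of male C57BL/6 mice in 4 groups. Ad-IGF2 (2 samples) and its control Ad-GFP (3 samples) were mice made obese on a diet with 45% fat whose fat pads received adenovirus 2 times a week for 4 weeks, with a viral CMV promoter and GFP in the vector. IGF2-RNAi (2 samples) and its control NC-RNAi (3 samples) were mice of 3 to 4 weeks given a lentivirus with a U6-driven hairpin by the tail vein. The table names none of these groups: its 4 comparisons carry no names, and all 35395 identifiers are human gene identifiers.

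For that reason the comparisons are numbered from left to right, and nothing below can be tied to IGF2 or read as its effect. They draw on 4 sets of 2 libraries: a first numerator set (the first and the second comparison), a second numerator set (the third and the fourth), a first reference set (the first and the third) and a second reference set (the second and the fourth). Comparisons that share a set are therefore not independent of each other. No column or label ties a library to a sample. The design text speaks of 2 sequencing replicates in each group without saying whether these are separate animals or runs of 1 RNA, so p-values measure only the spread between these libraries. Every log2 fold change, standard error (SE) and adjusted p below is a value of the authors' deposited table unless limma is named.

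The printed base means could be resolved into the whole reads of all 8 libraries, 12086064 to 28375445 reads each. Levels are given below as CPM, the reads of a gene scaled to the same library total of 1000000 reads, with the library of larger size factor in each set called a and the other b. Gene lengths were not used, so levels are compared between libraries and not between genes. Markers of fat cells were nearly absent: the hormone ADIPOQ was at 0 in 4 libraries and at most at 0.137 CPM in the others. Library a of the first numerator set stood apart: of 10105 features of at least 10 CPM, 129 were more than 2-fold above and 77 more than 2-fold below all other libraries, against 0 to 3 above and 0 to 40 below in the other 7.

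The second numerator set had lower levels than its references for most of the 78 genes, and only the 2 comparisons with that set (the third and the fourth) gave calls. Low levels were not particular to that set. In a limma fit of the second against the first numerator set the median log2 difference was -0.06, with 38 genes positive and 40 negative. Library a of the first numerator set was the lowest of all libraries in CPM for 37 members, and library a of the second for 25. No such count was made over all features. At an adjusted p under 0.05, 3 genes rose and 26 fell against the first reference set (the third comparison), where 14.8% of all tested features were called higher and 16.1% lower. Against the second reference set (the fourth comparison) 3 rose and 45 fell, beside 17.2% and 17.5% of all tested features. The members are better expressed than most features, and among features of at least 2 CPM the shares were 16.9% higher and 26.7% lower in the third comparison and 19.3% higher and 27.6% lower in the fourth. The 33.3% of members that fell against the first reference set was close to that background, and the 57.7% that fell against the second was well above it. The 3.85% of members that rose lay below it in both.

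**Figure D1:**
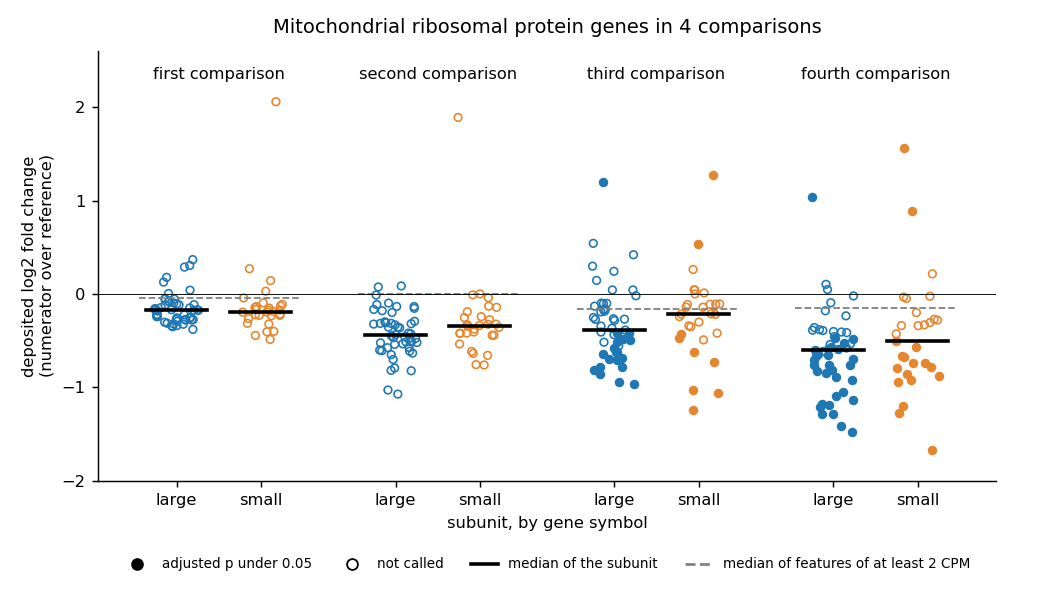
Deposited log2 fold change (numerator over reference, vertical axis) of the 49 large subunit and 29 small subunit genes in each comparison. Each point is a gene, filled where its adjusted p was under 0.05, with the median of the subunit as a black bar and the median of all features of at least 2 CPM as a dashed line. Filled points appear in the third and the fourth comparison, most of them below 0, and the point near 2 in the first and second is MRPS6.

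The large subunit held a larger share of falls than the small subunit. Against the first reference set 19 of 49 large subunit genes (38.8%) fell and 1 rose. Of 29 small subunit genes 7 (24.1%) fell and 2 rose there. The small subunit share was near the 26.7% of features of at least 2 CPM called lower. Against the second, 30 large subunit genes (61.2%) fell and 1 rose, while 15 of the small subunit (51.7%) fell and 2 rose. There 27.6% of such features were lower. The shares that rose, 2.04% of the large and 6.90% of the small subunit, lay below 16.9% and 19.3% of such features. The median log2 fold change was -0.39 for the large and -0.22 for the small subunit in the third comparison. It was -0.60 for the large and -0.51 for the small subunit in the fourth. The median SE of a single gene was 0.20 in the former and 0.22 in the latter. No test of large against small was run, so the gap between the subunits is a description.

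The size of these shifts depends on the scaling. The median feature of at least 2 CPM lay at -0.16 in the third comparison and -0.15 in the fourth, while the median of all tested features lay at 0.09 and 0.08. Centred on the former, 4 members were called higher and 11 lower in the third comparison, with 18.1% and 11.4% of all tested features. The centred counts of the fourth were 3 higher and 33 lower, with 20.2% and 13.5%. A log2 ratio of CPM lies above the deposited fold change by 0.18 in the third comparison and by 0.19 in the fourth. On that scale the small subunit median against the first reference set came to -0.04 with 16 of 29 genes lower, and the large subunit median to -0.21 with 34 of 49 lower.

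The first numerator set gave no call. In the first comparison 0.0258% of tested features were called higher and as many lower, and in the second 0.558% were higher and 0.262% lower. At an unadjusted p under 0.05, 0 members were called in the first comparison (2.43% of features higher and 0.367% lower), and 7 were lower and 0 higher in the second (6.03% higher and 3.22% lower). A limma fit of the recovered reads also called 0 members in both, with 0% of features called in the first and 0.0396% higher and 0.0264% lower in the second. Fold changes were below 0 for 67 of 78 genes in the first comparison and for 74 of 78 in the second, with medians of -0.17 and -0.44 for the large and -0.19 and -0.35 for the small subunit. The median SE was larger than with the second numerator set, at 0.34 and 0.36. The median feature of at least 2 CPM lay at -0.04 in the first comparison and at -0.002 in the second. Cytosolic ribosomal protein genes, given below, were also mostly below 0 in both.

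Grouped by descent, 46 members have a counterpart in bacterial ribosomes and 31 are found in mitochondrial ribosomes alone, with MRPS36 in neither class. Of the bacterial type, 18 (39.1%) fell against the first reference set and 30 (65.2%) against the second, and 2 (4.35%) rose in each case. Of the mitochondrial type, 8 (25.8%) fell against the first and 14 (45.2%) against the second, and 1 (3.23%) rose in each case. Among features of at least 2 CPM 26.7% and 27.6% were lower, and 16.9% and 19.3% higher. The 8 falls of the mitochondrial type were thus near the share of such features. The medians of the bacterial and the mitochondrial type against the second reference set were -0.65 and -0.51, and the difference was not tested. Structures of the ribosome place the products of MRPS30 and MRPS18A in the large subunit, and moving both there left its counts of calls as they were. With MRPS36 also left out of the small subunit, the shares of falls lay closer together. Of the large subunit 37.3% fell against the first reference set, beside 26.9% of the small. The second reference set gave 58.8% for the large subunit, beside 53.8% for the small. Its medians were -0.59 for the large subunit, beside -0.54 for the small. The medians against the first, -0.37 for the large and -0.18 for the small subunit, did not move closer.

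MRPL18, the protein uL18m that binds 5S ribosomal RNA in bacteria and lies at the valine tRNA in the mammalian mitochondrial ribosome, gave the smallest p of the rises. Its level was 154 and 142 CPM in the second numerator set, against 57.6 and 55.8 in the first reference set, 58.2 and 67.4 in the second reference set, and 39.4 and 64.7 in the first numerator set. The second numerator libraries lay more than 2-fold above every other library. The log2 fold change was 1.20 (SE 0.16, adjusted p = 5.26e-13) against the first reference set and 1.04 (SE 0.19, adjusted p = 3.65e-07) against the second. These are rises of 2.3-fold and 2.06-fold. Separation from reference libraries without overlap was common among all features. Both second numerator libraries lay above both first reference libraries for 45.8% of tested features and below them for 26.1%. Against the second reference set the shares were 46.1% and 28%. Among the 78 members, 16 lay above and 37 below the first reference set, and 7 above and 51 below the second.

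MRPS25, the mitochondria-specific protein mS25 of the small subunit, was at 143 and 135 CPM in the second numerator set. It was at 84.8 and 85.1 CPM in the first reference set, 65.8 and 65.9 in the second, and 60.9 and 72.8 in the first numerator set. Again the second numerator libraries stood above the other 6 without overlap, and the reference libraries differed by less than 1 CPM within each set. It rose by 0.54 on the log2 scale (SE 0.15, adjusted p = 0.00231) against the first reference set and by 0.89 (SE 0.18, adjusted p = 5.29e-06) against the second.

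Both genes were also set directly against the first numerator set in a limma fit of those 4 libraries. MRPL18 was higher in the second numerator set by 1.5 (SE 0.28, adjusted p = 0.0430) and MRPS25 by 1.02 (SE 0.19, adjusted p = 0.0421). They were the 2 members called higher there and 0 were called lower, where 4.99% of features were higher and 2.03% lower. With library a of the first numerator set left out, 4 members were higher (5.13%, beside 23.7% of features) and 16 lower (20.5%, beside 20.6%). With its library b left out, 8 were higher (10.3%, beside 22.3%) and 11 lower (14.1%, beside 22.5%). Members were thus lower at about the share of all features in the former and at a smaller share in the latter. With second numerator library a or b left out 0 members were called, where 0.0066% and 0.0198% of features were higher.

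MRPS24, which encodes uS3m at the mRNA entry of the small subunit, had few reads. Its counts were 90 and 52 reads in the second numerator set, 52 and 22 in the first reference set, 16 and 33 in the second, and 64 and 11 in the first numerator set. As CPM these were 6.16 and 4.3, 2.48 and 1.32, 1.01 and 2.08, and 2.26 and 0.680, so the second numerator libraries were again the highest pair. It rose by 1.28 (SE 0.52, adjusted p = 0.0473) against the first reference set and by 1.56 (SE 0.55, adjusted p = 0.0160) against the second. The former call was lost without library a of the second numerator set and when every row with a p-value was adjusted, and both were lost at an adjusted p under 0.01. The human annotation holds a transcript that reads through from the neighbouring URGCP into MRPS24, so its reads may be split between genes. HSPA1A, the inducible cytosolic HSP70 and chosen here after its values were seen, was at 3403 and 2696 CPM in the second numerator set and at 24.4 to 95 elsewhere. Its part in the rises was not tested.

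**Figure D2:**
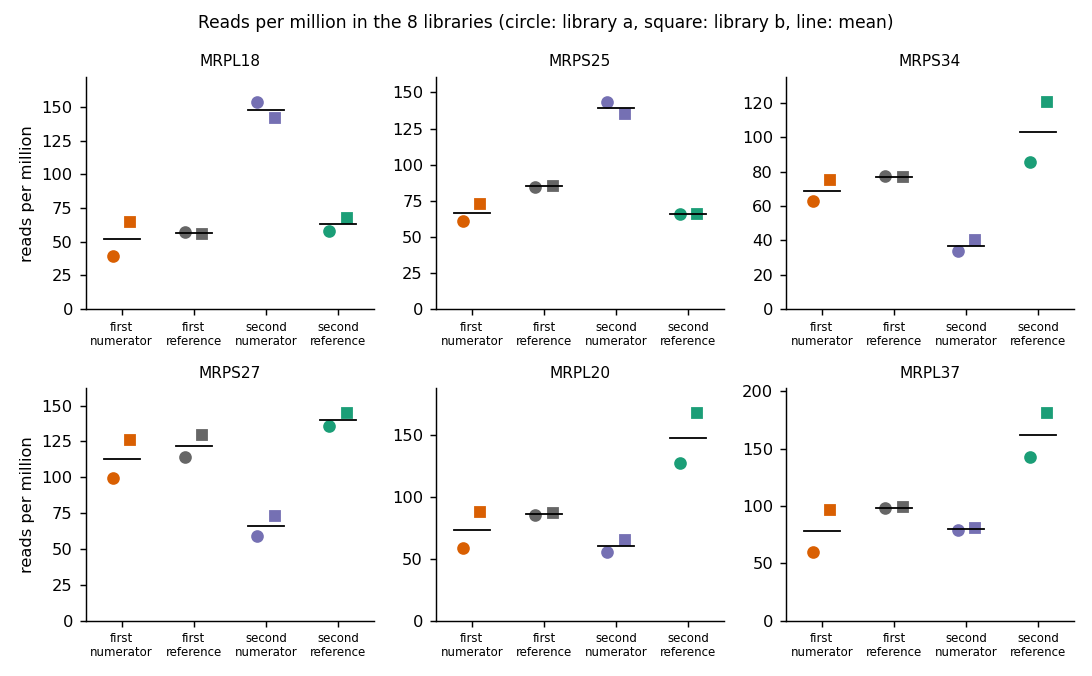
CPM (vertical axis, from 0) of 6 members in the 8 libraries, by library set on the horizontal axis, with library a as a circle, library b as a square and the mean of each set as a line. MRPL18 and MRPS25 stand highest in the second numerator set, MRPS34 and MRPS27 lowest there, and MRPL20 and MRPL37 stand highest in the second reference set.

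Many calls below depended on library a of the second numerator set. Without it, limma called MRPL18 and MRPS25 higher and MRPL24, MRPS27 and MRPS34 lower in the third comparison, and every other call of a member there was lost. In the fourth, those of MRPL3, MRPL36, MRPS14, MRPS16, MRPS18B, MRPS26 and MRPS36 were lost among the named genes. Among the falls, MRPS34 gave the largest against both reference sets. Its product, mS34, is a mitochondria-specific small subunit protein that the 12S ribosomal RNA needs for its stability. The second numerator libraries held 33.8 and 40.2 CPM, the first reference libraries 77.5 and 76.7, the second reference libraries 85.9 and 121, and the first numerator libraries 62.9 and 75. Both second numerator libraries lay below all others. Deposited log2 fold changes were -1.24 (SE 0.18, adjusted p = 2.86e-10) against the first reference set and -1.67 (SE 0.23, adjusted p = 5.83e-12) against the second.

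MRPS27, a pentatricopeptide repeat protein of the small subunit that binds mitochondrial RNA, was likewise lowest in the second numerator set. It was at 59.2 and 72.9 CPM there, 114 and 129.6 in the first reference set, 136 and 145 in the second, and 99.1 and 126 in the first numerator set. No library of another set came as low as this pair. Deposited log2 fold changes were -1.06 (SE 0.18, adjusted p = 4.33e-08) against the first reference set and -1.28 (SE 0.19, adjusted p = 7.92e-10) against the second.

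MRPS28, named bS1m after a bacterial protein, was measured from 54 to 173 reads per library. It stood at 3.70 and 4.88 CPM in the second numerator set and at 6.10 to 8.71 in the other 6 libraries, without overlap. The log2 fold changes were -1.02 (SE 0.39, adjusted p = 0.0288) and -1.20 (SE 0.38, adjusted p = 0.00665) against the first and second reference set, and the former was no longer called once centred. MRPS16 (bS16m), the small subunit gene with the largest base mean, lay at 97.5 and 110.0 CPM in the second numerator set and at 129 to 157 CPM elsewhere. It fell by 0.73 on the log2 scale against each (SE 0.16 and 0.18, adjusted p = 3.68e-05 and 0.000337), the latter not called by limma without library b of the second numerator set.

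MRPS26 (mS26) had 23 and 27.1 CPM in the second numerator set, against 37.6 and 30.5 in the first and 30.5 and 45.0 in the second reference set. Its log2 fold changes were -0.62 (SE 0.22, adjusted p = 0.0182) and -0.79 (SE 0.26, adjusted p = 0.00895). The former call was lost when fold changes were centred, at an adjusted p under 0.01, and in limma fits without library a of the first reference set or either library of the second numerator set. The latter was lost without library a of the second numerator set or library b of the second reference set. Library a of the first numerator set was as low, at 22.9 CPM, while library b held 33.8.

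In the large subunit, MRPL24 (uL24m), whose bacterial counterpart starts assembly on the ribosomal RNA, gave the largest fall against the first reference set. It was at 36.4 and 39.7 CPM in the second numerator set, 62.6 and 68.7 in the first reference set, 68.8 and 93.3 in the second, and 44.3 and 70.4 in the first numerator set. The second numerator libraries lay lowest, with library a of the first numerator set next. Deposited log2 fold changes were -0.96 (SE 0.18, adjusted p = 1.59e-06) and, against the second reference set, -1.28 (SE 0.22, adjusted p = 1.01e-07).

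MRPL1 (uL1m), whose bacterial counterpart forms the stalk that moves the spent tRNA out, was at 17.2 and 15.9 CPM in the second numerator set. It was at 26.5 and 25 CPM in the first reference set, 29.9 and 35.5 in the second, and 19.6 and 25.3 in the first numerator set. The second numerator libraries were below all others for MRPL1, and the same held for MRPL57, MRPL36 and MRPL41. The log2 fold changes of MRPL1 were -0.82 (SE 0.23, adjusted p = 0.00202) and -1.17 (SE 0.24, adjusted p = 1.15e-05), and the former was also lost without library b of the second numerator set.

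MRPL57 (mL63) had 17.1 and 21.4 CPM in the second numerator set and 27.7 to 44.2 elsewhere, with log2 fold changes of -0.78 (SE 0.23, adjusted p = 0.00322) and -1.28 (SE 0.24, adjusted p = 8.91e-07). MRPL36 (bL36m) had 21.7 and 29.0 CPM and 35.2 to 52.2 elsewhere, with -0.85 (SE 0.22, adjusted p = 0.000600) and -1.05 (SE 0.25, adjusted p = 0.000181). MRPL41 (mL41) had 15.7 and 16.6 CPM and 22.0 to 46.5 elsewhere, with -0.78 (SE 0.23, adjusted p = 0.00392) and -1.41 (SE 0.28, adjusted p = 3.33e-06). The highest level of MRPL41, 46.5 CPM, was that of library b of the second reference set, and the next was 28.8 CPM in library a.

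MRPL34 (bL34m) differed between the libraries of the first numerator set, with 61.2 CPM in library a and 37.3 in library b. The second numerator set held 23.7 and 28.7 CPM, the first reference set 36.8 and 35.7, and the second 45.9 and 58.2. The second numerator pair was lowest here too. It fell by 0.65 (SE 0.21, adjusted p = 0.00921) and 1.18 (SE 0.23, adjusted p = 3.75e-06) against the first and second reference set, the former not called once centred. In the first comparison its fold change was positive at 0.37 (SE 0.35) without a call.

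MRPL20 and MRPL37 stood highest in the second reference set. MRPL20 (bL20m), an early assembly protein in bacteria, was at 127 and 168 CPM there, against 85.4 and 87.0 in the first reference set, 55.6 and 65.3 in the second numerator set, and 59.1 and 88.0 in the first. For MRPL20 and for MRPL37 both libraries of that set lay above all 6 others. The log2 fold change of MRPL20 was -0.69 (SE 0.17, adjusted p = 0.000456) in the third comparison, -1.48 (SE 0.21, adjusted p = 5.23e-11) in the fourth and -1.03 (SE 0.37, adjusted p = 0.206) in the second.

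MRPL37 (mL37) was at 143 and 181 CPM in the second reference set, 97.9 and 99.2 in the first, 79.2 and 80.3 in the second numerator set, and 60.1 and 96.5 in the first. It fell by 0.48 (SE 0.16, adjusted p = 0.00960) in the third comparison and by 1.21 (SE 0.19, adjusted p = 8.76e-09) in the fourth. The call in the third was lost when fold changes were centred and in all 4 limma fits that left out 1 library. In the second, where it was not called, it was at -1.07 (SE 0.37, adjusted p = 0.184). In a limma fit of the second against the first reference set, MRPL20 was higher by 0.75 (SE 0.19, adjusted p = 0.0299) and MRPL37 by 0.70 (SE 0.19, adjusted p = 0.0361).

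The second reference set was the higher of the 2 reference sets for most members, with positive limma differences for 69 of 78 genes and a median log2 difference of 0.24. MRPL20, MRPL37 and MRPL33 were called higher and 0 members lower, where 2.98% of features were higher and 3.85% lower. Library b of that set was the highest of all 8 libraries in CPM for 59 of the 78 members. Neither this count nor that of positive differences was made over all features, so neither can be called particular to the members. Without library b of the second reference set the median difference was 0.10, 56 of 78 genes were positive and 0 were called, beside 0.0594% of features higher. Without library b of the first reference set 0 were called too (2.01% of features higher), and without its library a MRPL33 alone was (2.92%). Without library a of the second reference set 8 members, or 10.3%, were called higher, beside 3.4% of features.

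Summed over members, the large subunit genes took 2516 and 3114 CPM in the second reference set. They took 2289.8 and 2253 CPM in the first reference set, 1953 and 2284 in the first numerator set, and 2035 and 2120.3 in the second. The small subunit genes without MRPS6 took 1527 and 1792 CPM in the second reference set, 1431 and 1454 in the first, 1218 and 1417 in the first numerator set, and 1277 and 1347 in the second. For both subunits the second reference libraries were the highest pair. Without MRPS6, the ratio of large to small stayed between 1.55 and 1.74 in all 8 libraries, with its highest value in library b of the second reference set. With MRPS6 kept, it was lowest in library a of the first numerator set, at 1.38, and highest in that same reference library, at 1.71.

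**Figure D3:**
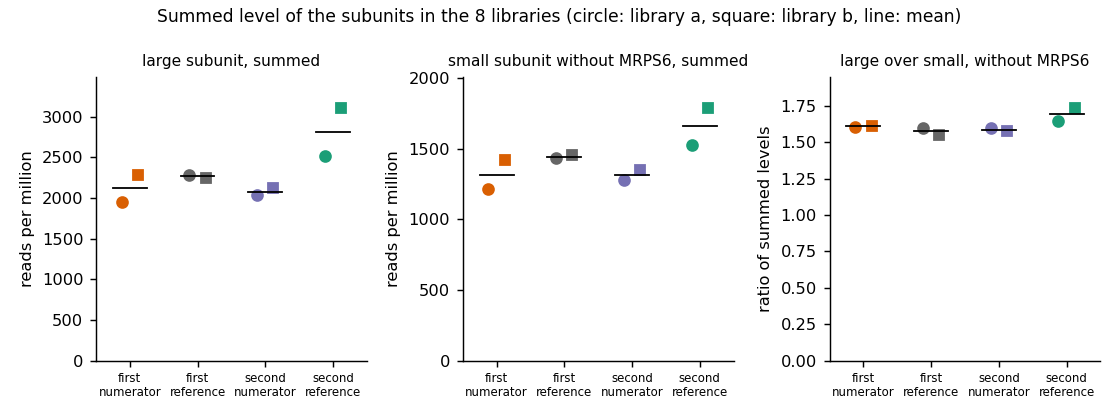
Summed level of the large subunit genes and of the small subunit genes without MRPS6, in CPM, and the ratio of both sums (vertical axes, from 0) in the 8 libraries, by library set, with library a as a circle, library b as a square and the mean as a line. Both sums peak in library b of the second reference set, at 3114 and 1792 CPM, and the ratio lies between 1.55 and 1.74.

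The counts of falls moved with single libraries. Refitted with limma, the third comparison gave 5 higher and 19 lower members, where 23.6% of features were higher and 21.8% lower. The fourth gave 3 higher and 39 lower, where 26.4% were higher and 24.9% lower. In the third, 22 genes were called by both, which is 75.9% of the deposited calls and 91.7% of the limma calls, and in the fourth 42 were, which is 87.5% and 100%. Without library a of the second numerator set, 3 members were lower in the third comparison (7.54% of features) and 13 in the fourth (13%). Without library b of that set there were 15 (16.2%) and 23 (17.9%). In the fourth there were 25 (22.7%) without library b of the second reference set and 53 (26.8%) without its library a. MRPL24, MRPS27 and MRPS34 were lower, and MRPL18 and MRPS25 higher, in each of the 8 limma refits of these 2 comparisons that left out 1 library.

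In both comparisons with the second numerator set 28 members were called. MRPL17 was called in the third alone, 20 genes in the fourth alone and 29 in neither. The 20 were MRPL3, MRPL11, MRPL12, MRPL13, MRPL23, MRPL28, MRPL30, MRPL40, MRPL47, MRPL49, MRPL50, MRPL51, MRPS7, MRPS12, MRPS14, MRPS15, MRPS18B, MRPS21, MRPS35 and MRPS36, and all of them were lower. MRPS12 shares its start region with SARS2, so their reads may also be split between genes.

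MRPL3 (uL3m), the large subunit gene with the largest base mean, held 175 and 176 CPM in the second numerator set, 186 and 187 in the first reference set and 203 and 223 in the second. Its lowest library was library a of the first numerator set at 117 CPM, with 197 in library b. The log2 fold change was -0.27 (SE 0.14, adjusted p = 0.151) in the third comparison and -0.47 (SE 0.17, adjusted p = 0.0217) in the fourth, and limma did not call the latter.

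MRPS14 (uS14m), in the head of the small subunit, was at 11.4 and 13.2 CPM in the second numerator set, 12.8 and 16.4 in the first reference set, 18.1 and 22.7 in the second, and 20.3 and 16.6 in the first numerator set. The second numerator libraries overlapped the first reference set and lay below the second. The log2 fold changes were -0.42 (SE 0.28, adjusted p = 0.277) and -0.92 (SE 0.28, adjusted p = 0.00427). MRPS36, now counted as a subunit of the alpha-ketoglutarate dehydrogenase complex in place of the ribosome, was at 7.33 and 10.4 CPM, 11.5 and 8.34, 12.5 and 17.3, and 12.1 and 10.8 in the same order of sets. It too overlapped the first reference set and lay below the second, with -0.34 (SE 0.34, adjusted p = 0.501) and -0.94 (SE 0.33, adjusted p = 0.0141), and the call was lost without library b of the second reference set.

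The 3 MRPS18 genes descend from 1 bacterial protein and take different places in the ribosome. MRPS18B (mS40, small subunit) was at 77 and 82.7 CPM in the second numerator set, 91.1 and 89.0 in the first reference set and 116 and 142 in the second, with log2 fold changes of -0.35 (SE 0.16, adjusted p = 0.0838) and -0.88 (SE 0.19, adjusted p = 4.62e-05). MRPS18A (mL66, large subunit) was at 36.9 and 41.7, 42.6 and 38.0, and 39.5 and 52.9 CPM in these sets, with -0.21 (SE 0.19) and -0.43 (SE 0.23), neither called. MRPS18C (bS18m, at the bacterial place) was at 25.5 and 29.5, 23.9 and 24.3, and 26 and 32.3 CPM, with 0.01 (SE 0.22) and -0.28 (SE 0.24), neither called. MRPS18B was the 1 of the 3 with a call, and the difference between the 3 was not tested.

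MRPS30 (mL65, large subunit by structure) lay between 49.3 and 66.6 CPM over the 8 libraries. Its log2 fold changes lay between -0.22 and 0.00 with SEs of 0.18 to 0.34. MRPL38 (mL38), the large subunit gene with the smallest base mean, was measured from 30 to 61 reads per library, 2.15 to 4.18 CPM, with SEs of 0.52 to 0.62. Its log2 fold changes lay between -0.17 and 0.10, and it was not called. The other members called in neither comparison were MRPL9, MRPL21, MRPL22, MRPL27, MRPL32, MRPL33, MRPL39, MRPL42, MRPL44, MRPL45, MRPL46, MRPL48, MRPL52, MRPL53, MRPL54, MRPL58, MRPS5, MRPS6, MRPS9, MRPS10, MRPS11, MRPS17, MRPS18A, MRPS18C, MRPS23, MRPS31 and MRPS33.

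MRPS6 (bS6m), with the largest positive fold change of the first and second comparison, was high in 1 library. It was at 199 CPM in library a of the first numerator set and 25.2 in library b, and at 24.2 to 29.5 CPM in the other 6 libraries. The log2 fold change was 2.06 (SE 1.21) in the first comparison and 1.89 (SE 1.21, adjusted p = 0.687) in the second, neither called. SLC5A3, the myo-inositol transporter whose gene overlaps MRPS6, was at 1317 CPM in the same library and at 36.6 to 90.5 CPM in the other 7. How reads in overlapping genes were counted is not stated in the labels, so reads of MRPS6 and SLC5A3 cannot be told apart. Without that library the limma difference of MRPS6 was 0.02 (SE 0.20) in the first comparison.

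MRPL17 (bL17m), whose bacterial counterpart lies near the tunnel exit, was split by the second reference set, with 24.9 CPM in library a and 78.7 in library b. The second numerator libraries, at 36.1 and 43.8 CPM, lay between them and below the first reference set at 74.7 and 61.3. It was lower in the third comparison (-0.94, SE 0.19, adjusted p = 1.22e-05) and not called in the fourth (-0.58, SE 0.81, adjusted p = 0.631). In limma fits of the fourth it was -1.10 (SE 0.19) without library a of the second reference set and 0.62 (SE 0.21) without library b, so its direction turned with the library kept.

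MRPL33 (bL33m) was low in library b of the first reference set, at 17.4 CPM. The other library of that set held 32.2 CPM, the first numerator set 30.9 and 32.0, the second numerator set 40.6 and 41.0, and the second reference set 40.2 and 52.8. Its log2 fold change was 0.54 (SE 0.26, adjusted p = 0.102) in the third comparison and -0.38 (SE 0.22, adjusted p = 0.182) in the fourth. In the limma fit of the reference sets it was higher in the second by 0.95 (SE 0.26, adjusted p = 0.0377).

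**Figure D4:**
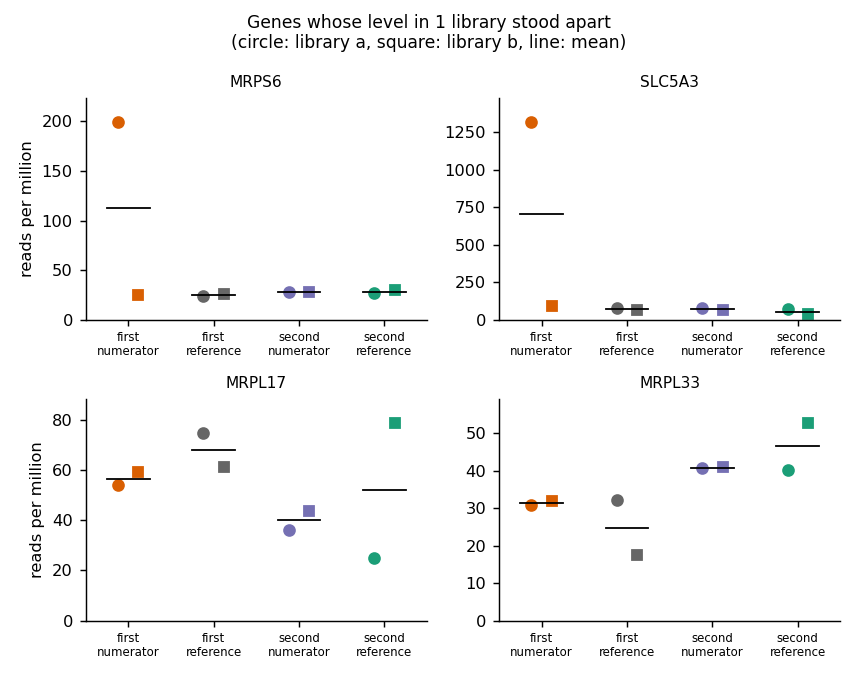
CPM (vertical axis, from 0) of MRPS6, of SLC5A3, whose gene overlaps it, and of MRPL17 and MRPL33 in the 8 libraries, by library set, with library a as a circle, library b as a square and the mean as a line. MRPS6 at 199 CPM and SLC5A3 at 1317 CPM peak in the same library, and 1 library each sets MRPL17 (24.9 CPM) and MRPL33 (17.4 CPM) apart.

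Mitochondrial ribosomal proteins with other names were lower where called. Of 5 tested, 3 (60%) were lower and 0 higher against each reference set, beside 26.7% and 27.6% of features of at least 2 CPM lower. AURKAIP1 (mS38 of the small subunit) had 62.9 and 80.1 CPM in the second numerator set, 101 and 97.5 in the first reference set and 172 and 257 in the second. It fell by 0.65 (SE 0.18, adjusted p = 0.00159) and by 1.78 (SE 0.23, adjusted p = 3.98e-13), and both second numerator libraries lay below all reference libraries. GADD45GIP1 (mL64) fell by 0.53 (SE 0.19, adjusted p = 0.0185) and by 1.09 (SE 0.23, adjusted p = 1.65e-05). PTCD3 (mS39), at the mRNA entry of the small subunit, fell by 0.49 (SE 0.18, adjusted p = 0.0278) against the first reference set and was at -0.37 (SE 0.19, adjusted p = 0.131) against the second.

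Of 27 assembly factors, 10 (37.0%) were lower and 1, NGRN (3.70%), was higher against each reference set. Beside this 26.7% and 27.6% of features of at least 2 CPM were lower, and 16.9% and 19.3% higher. The falls named next are the list's smallest p-values, and no test of the list as a whole was run. C1QBP, a matrix protein needed for mitochondrial translation, was at 131 and 143 CPM in the second numerator set, 214 and 212 in the first reference set and 227 and 279.9 in the second. It fell by 0.81 (SE 0.15, adjusted p = 5.79e-07) and 1.08 (SE 0.19, adjusted p = 1.61e-07). METTL17, which acts on the small subunit during assembly, fell by 0.92 (SE 0.18, adjusted p = 8.03e-06) and 0.99 (SE 0.21, adjusted p = 1.49e-05). RBFA, which binds the 12S RNA, fell by 1.25 (SE 0.27, adjusted p = 4.04e-05) and 1.10 (SE 0.30, adjusted p = 0.00142). For all 3 the second numerator libraries lay below the reference libraries. Against the first and second reference set, 26.1% and 28% of tested features did so.

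Of 16 translation factors, 5 (31.3%) were lower against each reference set, close to the 26.7% and 27.6% of features, and 1, MTRF1, was higher. MTRF1, a release factor chosen here after its values were seen, rose by 0.63 (SE 0.25, adjusted p = 0.0422) and 0.74 (SE 0.26, adjusted p = 0.0167). The falls named next are the list's smallest p-values and not a change of the list as a whole. TUFM, the elongation factor that delivers aminoacyl-tRNA, was at 196 and 237 CPM in the second numerator set, 321 and 359 in the first reference set and 346 and 441 in the second. It fell by 0.83 (SE 0.16, adjusted p = 2.64e-06) and 1.05 (SE 0.20, adjusted p = 1.15e-06). OXA1L, which inserts the new proteins into the inner membrane, fell by 0.78 (SE 0.16, adjusted p = 2.03e-05) and 0.93 (SE 0.19, adjusted p = 1.14e-05). GFM1, the translocating elongation factor, fell by 0.71 (SE 0.17, adjusted p = 0.000215) and 0.48 (SE 0.19, adjusted p = 0.0403).

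Of 15 genes for mitochondrial transcription and RNA processing, 4 (26.7%) were lower against each reference set, the share found among features of at least 2 CPM (26.7% and 27.6%). KIAA0391 was higher against both and SUPV3L1 against the second, named here after their values were seen. The genes below are single calls and not a result about the list. ELAC2, which cuts the 3′ ends of tRNAs, fell by 0.94 (SE 0.16, adjusted p = 1.68e-07) and 1.10 (SE 0.18, adjusted p = 4.78e-08). POLRMT, the RNA polymerase, fell by 0.74 (SE 0.19, adjusted p = 0.000489) and 0.64 (SE 0.21, adjusted p = 0.0103). POLG, the DNA polymerase, fell by 0.73 (SE 0.17, adjusted p = 0.000146) and, against the second reference set, was at -0.25 (SE 0.19, adjusted p = 0.341).

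Regulators of nuclear genes for mitochondria were higher where called. Of 11 tested, 4 were higher and 0 lower against the first reference set, and 6 higher and 0 lower against the second, which is 36.4% and 54.5% beside 16.9% and 19.3% of features of at least 2 CPM higher. GABPA and GABPB1, the DNA-binding and activating parts of the nuclear respiratory factor GABP, were at 98.4 and 75.5 CPM and at 64.8 and 61.1 CPM in the second numerator set. The other 6 libraries held 29.0 to 49.2 CPM of GABPA and 18.7 to 29.98 of GABPB1, without overlap. GABPA rose by 0.77 (SE 0.19, adjusted p = 0.000357) and 1.08 (SE 0.23, adjusted p = 3.25e-05). GABPB1 rose by 1.00 (SE 0.18, adjusted p = 8.11e-07) and 1.29 (SE 0.21, adjusted p = 2.36e-08).

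PPARGC1A, the coactivator PGC-1alpha that drives mitochondrial gene programmes in fat and muscle, was at 12.3 and 6.70 CPM in the second numerator set and at 2.40 to 2.85 CPM in the 4 reference libraries. In the first numerator set it was at 15.7 CPM in library a and 1.24 in library b. It rose by 1.65 (SE 0.42, adjusted p = 0.000706) and 1.67 (SE 0.43, adjusted p = 0.000737) against the first and second reference set.

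Among 13 chaperones, proteases and regulators of the mitochondrial unfolded protein response, 4 were higher and 5 lower against the first reference set, and 3 higher and 4 lower against the second. The lower shares, 38.5% and 30.8%, stood beside 26.7% and 27.6% of features, and the higher ones, 30.8% and 23.1%, beside 16.9% and 19.3%. HSPD1, the HSP60 chaperonin, was at 2022 and 1615 CPM in the second numerator set and at 372 to 875 CPM elsewhere. It rose by 0.90 (SE 0.15, adjusted p = 2.37e-08) and 0.95 (SE 0.17, adjusted p = 5.53e-07). HSPE1, its HSP10 partner, rose by 1.07 (SE 0.20, adjusted p = 7.26e-07) and 0.62 (SE 0.24, adjusted p = 0.0322). TRAP1, the HSP90 of mitochondria, fell by 0.84 (SE 0.18, adjusted p = 2.33e-05) and 0.97 (SE 0.20, adjusted p = 1.92e-05).

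The mRNAs that the mitochondrial ribosome translates had positive medians in the comparisons with the second numerator set. With the first numerator set the medians were -0.12 and 0.21 against the first and second reference set. Of 13 tested, 1 was higher and 1 lower against the first reference set, and 7 were higher and 1 lower against the second, with medians of 0.15 and 0.55. The higher shares were 7.69% and 53.8%, beside 16.9% and 19.3% of features of at least 2 CPM. Their summed level was 43032 and 40639 CPM in the second numerator set, 35732 and 31270 in the first reference set and 22832 and 27704 in the second. In the first numerator set it was 42074 CPM in library a and 24685 in library b. MT-ND6, a complex I subunit and the one mRNA transcribed from the light strand, was the lower gene in the third and the fourth comparison. It was at -1.41 (SE 0.18, adjusted p = 7.14e-14) and -1.39 (SE 0.16, adjusted p = 5.27e-17). Its level was 481 and 475 CPM in the second numerator set and 584 to 1641 CPM elsewhere. MT-ATP8, an ATP synthase subunit, rose by 0.40 (SE 0.14, adjusted p = 0.0167) and 0.73 (SE 0.20, adjusted p = 0.001), while MT-ND5, of complex I, was not called at -0.34 (SE 0.14, adjusted p = 0.0576) and 0.10 (SE 0.18, adjusted p = 0.714). The mitochondrial strands overlap, and the labels do not say whether strand was used in counting.

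The RNA parts of the ribosome, looked up after the protein genes had been seen, were lower in the second numerator set against both reference sets. Among features of at least 2 CPM, 26.7% and 27.6% were lower. The 12S RNA of the small subunit, MT-RNR1, had log2 fold changes of -0.86 (SE 0.19, adjusted p = 3.06e-05) and -1.84 (SE 0.19, adjusted p = 2.63e-19). The 16S RNA of the large subunit, MT-RNR2, had -0.43 (SE 0.17, adjusted p = 0.0314) and -1.34 (SE 0.18, adjusted p = 7.76e-12). The valine tRNA, MT-TV, had -1.56 (SE 0.35, adjusted p = 6.78e-05) and -2.03 (SE 0.32, adjusted p = 4.66e-09). With the first numerator set none of these RNAs was called. There MT-RNR1 was at 0.25 (SE 0.53) against the first and -0.68 (SE 0.52) against the second reference set. MT-RNR2 was at 0.11 (SE 0.43) and -0.76 (SE 0.43), and MT-TV at 0.18 (SE 1.36) and -0.24 (SE 1.35). Reads per library were not recovered for MT-RNR1 and MT-RNR2. The labels do not say how ribosomal RNA was removed or mRNA selected.

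Ribosomal proteins of the cytosol were the nearest comparison. Of 78 tested, 3 were higher and 14 lower against the first reference set, and 0 higher and 38 lower against the second. The lower shares, 17.9% and 48.7%, stood beside 26.7% and 27.6% of features. Their medians were -0.18 and -0.46, beside -0.29 and -0.59 for the 78 mitochondrial genes. RPS2 fell by 0.80 (SE 0.14, adjusted p = 3.23e-07) and 1.26 (SE 0.20, adjusted p = 2.48e-09). RPS4X fell by 0.63 (SE 0.15, adjusted p = 0.000207) and 0.84 (SE 0.18, adjusted p = 3.17e-05), and RPL7A by 0.61 (SE 0.15, adjusted p = 0.000381) and 0.68 (SE 0.18, adjusted p = 0.00141). Their summed level was highest in library b of the second reference set as well, at 55409 CPM against 35558 to 42088 in the other 7. With the first numerator set the medians of the cytosolic genes were -0.20 and -0.46, beside -0.17 and -0.39 for the mitochondrial genes. Fold changes there were below 0 for 77 and 78 of the 79 cytosolic genes. The difference between both kinds of ribosome was not tested, and in none of these 8 lists was a gene called with the first numerator set.

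**Figure D5:**
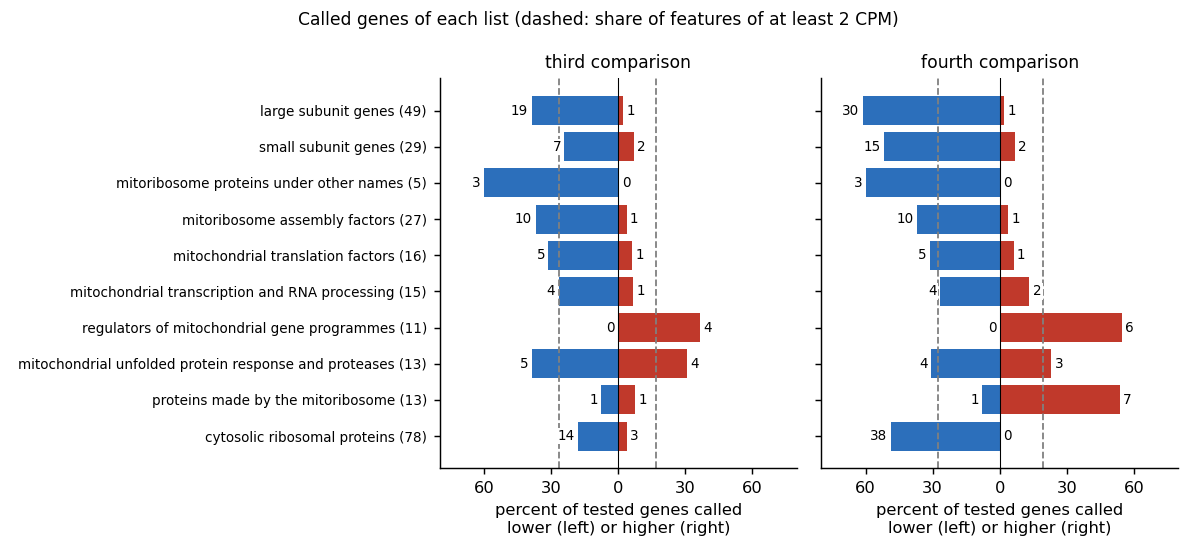
Share of tested genes called lower (left, blue) and higher (right, red) at a deposited adjusted p under 0.05 in the third and the fourth comparison, for both subunits and 8 lists of related genes, with the number of tested genes in brackets and the number called beside each bar. The dashed lines mark the shares among features of at least 2 CPM, 26.7% lower and 16.9% higher in the third and 27.6% lower and 19.3% higher in the fourth.

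Markers of cell types differed between the library sets. The 8 fat cell genes with reads summed to 14.2 and 9.68 CPM in the second numerator set, of which PLIN4 made 11.3 and 7.78, and to 0.840 to 5.00 elsewhere. The 7 macrophage genes summed to 22.7 and 20.0 CPM there and to 5.94 to 16 elsewhere, and the 8 epithelial genes to 372 and 415 CPM there and 535 to 908 elsewhere. Of the macrophage genes, 3 of 6 tested (50%) were called higher against the first reference set and 4 of 6 (66.7%) against the second. Of the fat cell genes, 1 of 4 (25%) and 2 of 5 (40%) were higher. None of either list was called lower, and 16.9% and 19.3% of features of at least 2 CPM were higher. Below 0 were 3 of 8 macrophage genes in the third comparison and 2 of 7 in the fourth. Of the epithelial genes, 2 of 7 tested (28.6%) were called lower against the first reference set and 2 of 6 (33.3%) against the second. None was called higher, and 26.7% and 27.6% of features of at least 2 CPM were lower. Fold changes were below 0 for 7 of 8 epithelial genes in the third comparison (median -0.72) and for 4 of 8 in the fourth (median -0.18). Their median base means were 9.94 and 4.97, and no test of a list as a whole was run. Fibroblast genes summed to 28.9 to 85.7 CPM and endothelial genes to 1.58 to 9.34 CPM over the 8 libraries, both highest in library a of the first numerator set. In bulk libraries fewer cells of a type and less RNA per cell cannot be told apart, and the part of these markers in the results was not tested.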

How the data were processed

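RNA sequencing of 10 mouse samples in 4 groups was deposited as 1 table of 28 columns. Per the labels, a commercial service sequenced the RNA and selected genes by an absolute log2 fold change over 1 and a p-value under 0.05; no aligner, counter or build is stated there. Per the file headers, the 4 unnamed comparisons give log2 fold changes with standard errors, a statistic, p-values and base means. The authors averaged normalised reads over the libraries of a comparison to make the base mean. The test statistic is a score, the fold change over its error, as the authors deposited it. The deposited adjusted p-values were used as they stand, called under 0.05. No value column (0 of 24) could be tied to a sample.

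Whole reads add up to the base mean in steps whose size depends on the library. Step sizes came from features with 2 reads, and reads of 8 libraries were the whole numbers that gave the base means of 3 comparisons (relative tolerance 1e-14). This succeeded for 27531 of 27533 features, not for MT-RNR1 and MT-RNR2. The second comparison was held out, and 26753 of 26755 of its base means matched within a relative 5e-09. With libraries in another order, at most 1.67% of 300 features were recovered. Fold changes refitted from these reads differed from the deposited ones by at most 4.28e-06 for the members.

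CPM used the sum of recovered reads. Reads were refitted with limma 3.58.1 (R 4.3.3) per comparison on 15157 features of at least 1 CPM on average, on a log2 scale with 0.5 reads added. Here libraries were scaled by size factors, not by the library totals of CPM. A size factor was the median ratio to the geometric mean over features with reads in every library of the fit. Fits were repeated with each library left out in turn, where a lone library was taken to vary like the other side. Recovery and limma were tested on simulated data. Named genes were the 6 called members per subunit of largest fold change in a comparison, those called against the majority, the largest and smallest base mean per subunit, the MRPS18 genes, MRPS30 and MRPS36, and 3 genes of smallest p per related list in the third comparison. MRPS6, MRPL33, SLC5A3, SARS2, HSPA1A, NGRN, MTRF1, KIAA0391 and SUPV3L1 were named after their values were seen. The members and lists were chosen with earlier results of these data known.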

Additional observations from a re-analysis of the deposited data

How the results depend on the processing

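No paired analysis was possible because no library could be tied to a numbered sample. The planned edgeR test of the recovered reads was not run, and limma was used in its place, chosen after seeing the data. Selecting by the labels' rule gave 2 lower members in the second comparison (0.94% of features), 3 in the third (3.79%) and 13 in the fourth (5.99%), so that the third lay at the share of all features. In the third, centring gave 11 lower, an adjusted p under 0.01 gave 15 (12.1% of features), and limma gave 5 higher. The cause was not tested. With 1 library left out of the limma fits, the first comparison gave 0 to 1 higher and 0 to 3 lower, the second 0 to 1 and 0 to 19, the third 2 to 5 and 3 to 19, and the fourth 3 to 4 and 13 to 53. The calls with the first numerator set (1 higher and 3 or 19 lower) came when its library b was left out, so that library a stood alone. There 5.69% of features were higher and 7.76% lower in the first comparison, and 13.1% and 11.1% in the second, beside 3.85% and 24.4% of members lower. The other counts of members were within 1.5 times, and all subunit medians kept their sign. Over the settings tried on 37 calls of named genes, 308 results kept the call and 62 lost it, 19 of these without library a of the second numerator set and 19 under the labels' rule. The 2 libraries per side, with 12086064 to 28375445 reads each, limit what can be detected.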
